A study of Mus musculus with 34 samples.

Results

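The hippocampus of mice carrying both the 5xFAD transgenes and the Dp16 duplication (5xFAD-Dp16) was compared with that of wild-type mice (WT), all given vehicle. The comparison took every vehicle library of the 2 genotypes, 3 from 5xFAD-Dp16 and 5 from WT animals, which are 8 of the 34 libraries of the study. 5xFAD mice express mutant human amyloid precursor protein and presenilin 1 in neurons from Thy1 promoter constructs, and accumulate amyloid plaques. In Dp16 mice, a model of Down syndrome, a stretch of mouse chromosome 16 whose genes match much of human chromosome 21 is present in an additional copy. The 5xFAD-Dp16 animals carry the transgenes and the duplication together, and the WT animals are labelled as C57BL/6J. All were 6 months old and had been gavaged each day with 0.5% methylcellulose for a month, called sham in the labels. The 5xFAD-Dp16 libraries, numbered 1, 2 and 4 in the labels, came from 2 females and, for library 4, 1 male, and the WT libraries 1 to 5 from 2 females and 3 males. The design text names 4 sham 5xFAD-Dp16 animals, of which 1 is not analysed here. Other groups used beside this comparison were sham 5xFAD (n = 4) and sham Dp16 (n = 3), and 5xFAD-Dp16 (n = 4) and WT (n = 5) animals given 15 mg/kg of the Janus kinase inhibitor tofacitinib. The labels separate the samples of a group by number and sex only and name no separate litter or day. The p-values therefore measure the spread between samples within groups, estimated over all 34 libraries and not over the compared 8 alone. Libraries held 15.8 to 19.7 M counts in 5xFAD-Dp16 and 16.4 to 21.1 M in WT animals.

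Several genes of the duplicated segment code for receptor subunits of interferons. Type I interferons bind a receptor built of the subunits IFNAR1 and IFNAR2, which activates the kinases JAK1 and TYK2. Their signal leads to a complex, with IRF9 as its DNA-binding part, that binds the interferon-stimulated response element (ISRE) in the promoters of interferon-stimulated genes. The products of these genes restrict viruses and raise antigen presentation. In the brain, microglia near amyloid plaques take on a state with high Cst7, Clec7a and Trem2-dependent genes, and part of them also express interferon-stimulated genes.

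Library 4 of the 5xFAD-Dp16 group stood apart from all other libraries compared, and its tissue make-up differed from the labelled hippocampus. Marker levels are given as the mean log2 CPM (counts per M counts in tested genes) of a list. CA1 pyramidal markers stood at 6.19, 6.38 and 3.75 in 5xFAD-Dp16 libraries 1, 2 and 4, against 6.09 to 6.41 in the WT libraries. Dentate gyrus markers stood at 4.96, 5.16 and 3.30 in the 5xFAD-Dp16 libraries, against 4.89 to 5.26 in the WT libraries. Libraries 1 and 2 lay inside the WT range for both lists, and library 4 lay far under it. Markers of the thalamus and habenula, which border the hippocampus, were at 3.29, 3.20 and 5.06 in the 5xFAD-Dp16 libraries, against 2.87 to 3.37 in the WT libraries. Myelin genes were at 7.42, 7.27 and 8.49 in the 5xFAD-Dp16 libraries, against 7.12 to 7.36 in the WT libraries. Choroid plexus genes were at 1.67, 1.33 and 5.33 in the 5xFAD-Dp16 libraries, and ranged widely in the WT libraries too, between 0.00666 and 5.26. Homeostatic microglial genes stood at 4.91, 5.02 and 4.25 in the 5xFAD-Dp16 libraries, against 4.38 to 4.6 in the WT libraries, so that library 4 was the lowest of all 8. Library 4 is also the only male of its group, so its sex and its make-up cannot be told apart within the group. The main results are given with and without it.

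**Figure D1:**
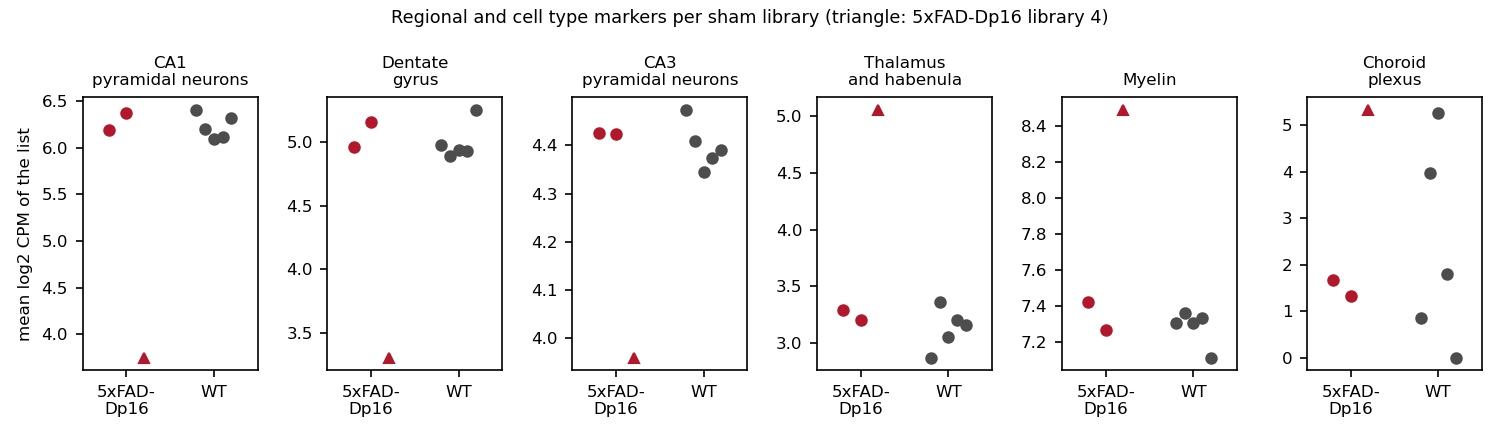
Mean log2 CPM of 6 marker lists in each library, with 5xFAD-Dp16 on the left and WT on the right of each panel and a triangle for 5xFAD-Dp16 library 4. Library 4 is under every WT library for CA1 and dentate gyrus markers (3.75 and 3.30) and over every WT library for thalamus and myelin (5.06 and 8.49).

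Of 17518 genes tested, 168 (0.959%) passed the threshold of an adjusted p under 0.05 in edgeR's quasi-likelihood test, in which all 34 libraries share 1 estimate of the spread. The rises numbered 143 (0.816% of genes tested) and the falls 25 (0.143%). The duplicated segment held 41 of the rises and none of the falls, and 102 rises lay elsewhere. All 3 libraries of 5xFAD-Dp16 lay above all 5 of WT for 130 of the 143 rises and below them for all 25 falls. Over all genes tested, 4.05% lay wholly above and 3.61% wholly below, 7.67% in all. The rises and falls were called from these same libraries, so their separation adds no independent support. The median log2 fold change of all genes was 0.01, with quartiles at -0.17 and 0.24. Without library 4 the calls numbered 65 of 17950 genes tested (0.362%), with 61 rises, of which 60 were among the 143, and 4 falls, of which 1 was among the 25. Leaving out library 1 or library 2 gave 415 and 474 calls, and leaving out WT library 1, 4 or 5 gave 91, 97 and 100. When the 8 compared libraries were fitted alone, no gene passed, with a smallest adjusted p of 0.0813, although 2093 genes had an unadjusted p under 0.05 and 163 of the 168 kept their direction. The calls therefore rest on the spread estimated over all 34 libraries. In the fit of all libraries 2513 genes had an unadjusted p under 0.05, and DESeq2 called 348.

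Genes of the duplicated segment were higher as a group. The segment was taken as chromosome 16 from 75540514 to 97962622 (GRCm38, 22.4 Mb), bounded by Lipi and Zbtb21, with 384 genes in the files, of which 107 had enough counts to be tested. Of these 41 passed the test, all higher, and 102 had a log2 fold change above 0. The median was 0.60 with quartiles at 0.43 and 0.78, and 57 genes had all 5xFAD-Dp16 libraries above all WT libraries. Among all genes tested, 0.816% rose, 52.1% had a log2 fold change above 0 and 4.05% lay wholly above WT. Without library 4 the median was 0.53 and 27 genes passed, 26 of them among the 41. Of 426 tested genes on the rest of chromosome 16 the median was 0.02, with 3 rises and 2 falls. A list of 37 mouse genes whose human counterparts lie on chromosome 21 but which are on other mouse chromosomes held 1 rise, the integrin subunit Itgb2, with a median of 0.10 (-0.07 without library 4).

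**Figure D2:**
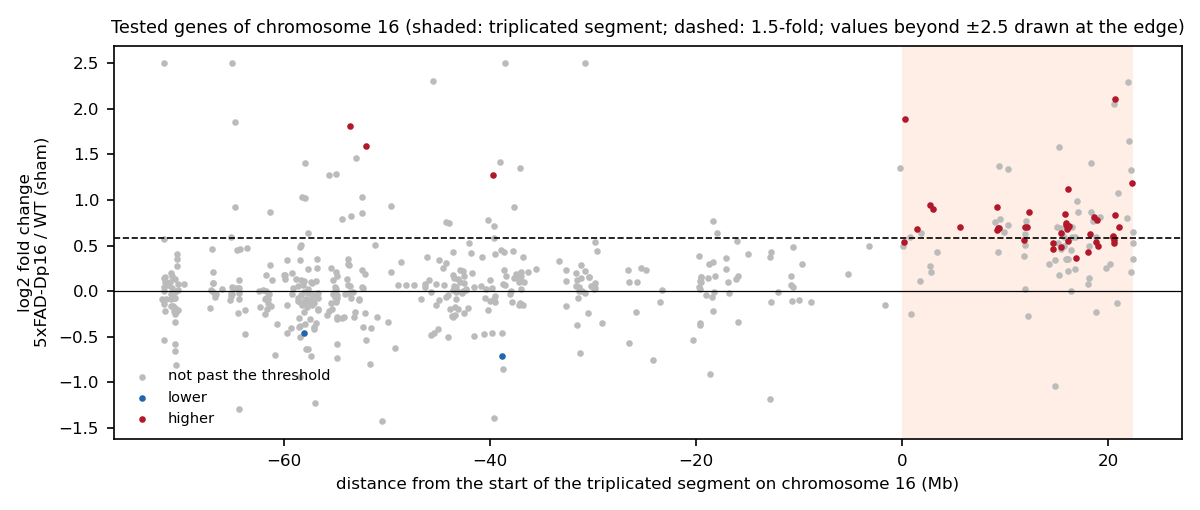
Log2 fold change of 5xFAD-Dp16 over WT for each tested gene of chromosome 16 by its distance in Mb from the start of the duplicated segment, which is shaded, with a dashed line at 1.5-fold and values beyond 2.5 drawn at the edge. Within the segment 102 of 107 genes lie above 0 around a median of 0.60, and the 426 genes outside have a median of 0.02.

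A value in brackets after a gene's name is its log2 fold change of 5xFAD-Dp16 over WT. The smallest p of the whole comparison belonged to Tmem50b (chromosome 16, 91574503 to 91597800), a transmembrane protein of the endoplasmic reticulum and Golgi. Its level was 133, 118 and 136 CPM in 5xFAD-Dp16 libraries 1, 2 and 4, against 83.7, 82.8, 81.3, 77.5 and 73.2 CPM in WT libraries 1 to 5. The groups were far apart relative to their spread, with no overlap (log2 fold change 0.68, SE 0.07, adjusted p = 8.09e-07, and 0.60 with adjusted p = 9.26e-05 without library 4). Cct8, a subunit of the chaperonin that folds actin and tubulin, stood at 242, 241 and 291 CPM in 5xFAD-Dp16 libraries 1, 2 and 4, against 158, 151, 165, 162 and 159 CPM in WT libraries 1 to 5. All 3 libraries were above the WT range, with library 4 the highest (log2 fold change 0.70, SE 0.08, adjusted p = 4.51e-06). Mrpl39, a mitochondrial ribosomal protein (0.68, adjusted p = 1.33e-05), and the gene D16Ertd472e (0.91, adjusted p = 3.68e-05) also rose. Ttc3, an E3 ubiquitin ligase, rose by 0.53 (adjusted p = 4.73e-05).

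Segment genes were described by role in lists made for this purpose. Of 14 tested genes for receptors and signalling, 8 rose, with a median of 0.74. Of 13 for membrane traffic and amyloid handling, 6 rose, with a median of 0.72, and 2 of them passed without library 4. Of 12 for adhesion and channels, 4 rose (median 0.76), among them the junction protein Jam2 and the neuronal adhesion molecules Ncam2 (0.70, adjusted p = 0.000662) and Dscam (0.70, adjusted p = 0.00134). Jam2 was at 103, 90.8 and 133 CPM in the 5xFAD-Dp16 libraries, against 51.3 to 60.6 CPM in the WT libraries, so every library was above the WT range (log2 fold change 0.92, SE 0.14, adjusted p = 0.000206). Of 19 for transcription and chromatin, 5 rose (median 0.53), among them the haem-regulated repressor Bach1 (0.71, adjusted p = 0.000101) and the ETS factor Gabpa (0.69). Of 16 for protein quality control and RNA, 9 rose (median 0.56), with the deubiquitinase Usp25 (0.69, adjusted p = 0.000122) and the chaperone Hspa13 (0.54). Of 14 for redox and metabolism, 8 rose (median 0.55), and 2 passed without library 4. The list medians without library 4 were 0.67 for receptors and signalling, 0.50 for membrane traffic and 0.38 for adhesion and channels. They were 0.51 for transcription and chromatin, 0.56 for protein quality control and RNA, and 0.45 for redox and metabolism. The superoxide dismutase Sod1 rose by 0.53 (adjusted p = 0.00141) and narrowly missed the threshold without library 4 (adjusted p = 0.0501).

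Genes much studied in Down syndrome differed in how firmly they rose. The kinase Dyrk1a was at 123, 141 and 110 CPM in the 5xFAD-Dp16 libraries, against 82.3 to 97 CPM in the WT libraries, with no overlap (log2 fold change 0.50, SE 0.08, adjusted p = 0.000731, and 0.59 with adjusted p = 0.000642 without library 4). The calcineurin inhibitor Rcan1 was at 72.2, 79.6 and 63.3 CPM in the 5xFAD-Dp16 libraries, against 49.2 to 61.2 CPM in the WT libraries, the lowest just over the WT range (log2 fold change 0.36, SE 0.09, adjusted p = 0.049). The endocytic scaffold Itsn1 (0.72, adjusted p = 0.000101) and the phosphatase Synj1 (0.64, adjusted p = 0.0131), which acts in synaptic vesicle recycling, also rose. Samsn1, an adaptor of immune cells, was at 6.15, 6.12 and 3.02 CPM in the 5xFAD-Dp16 libraries, against 0.328 to 1.82 CPM in the WT libraries, with library 4 the lowest of the 3 yet above the WT range (log2 fold change 1.88, SE 0.35, adjusted p = 0.00269). Sh3bgr gave 2.67, 2.57 and 11.9 CPM in the 5xFAD-Dp16 libraries, against 0.768 to 2.04 CPM in the WT libraries, with log2 fold changes of 2.11 with all libraries, and 0.88 with adjusted p = 0.862 without library 4. The calmodulin regulator Pcp4 did not pass (185, 157 and 387 CPM in the 5xFAD-Dp16 libraries, against 98.8 to 126 CPM in the WT libraries, adjusted p = 0.237). The 5 tested segment genes below 0 were Gm9843 (-0.26), 2810407A14Rik (-0.27), Gm49708 (-1.04), Ripply3 (-0.23) and Igsf5 (-0.13), and none passed.

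App, the precursor of amyloid beta, lies in the segment. Its level was 2440, 2744 and 2991 CPM in 5xFAD-Dp16 libraries 1, 2 and 4, against 1753, 1677, 1347, 1638 and 1915 CPM in WT libraries 1 to 5. The 5xFAD-Dp16 libraries were all above the WT range, and library 4 was the highest (log2 fold change 0.69, SE 0.14, adjusted p = 0.00733, and 0.56 with adjusted p = 0.149 without library 4). Thy1 (chromosome 9, 44043384 to 44048579), whose regulatory sequence drives the transgenes, was at 2555, 2875 and 1254 CPM in 5xFAD-Dp16 libraries 1, 2 and 4, against 906, 838, 832, 884 and 922 CPM in WT libraries 1 to 5. Library 4 was the lowest of its group, as it was for CA1 markers, yet above all WT libraries (log2 fold change 1.34, SE 0.22, adjusted p = 0.000689, and 1.65 with adjusted p = 9.26e-05 without library 4). Neither labels nor files say where transgene reads were assigned, and App and Thy1 values may include them. In sham 5xFAD libraries, which carry the transgenes alone, App was at 1484 to 1814 CPM, within the WT range. Thy1 was at 1935 to 2814 CPM in the same 5xFAD libraries and at 808 to 887 CPM in sham Dp16 libraries. The part of transgene reads was not tested.

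Of 8 interferon and interleukin-10 family receptor genes, 6 could be tested and 3 rose, all of the segment. Ifnar1 (chromosome 16, 91485238 to 91507441) was at 58, 54.4 and 59.5 CPM in 5xFAD-Dp16 libraries 1, 2 and 4, against 39.7, 32.3, 34.2, 32.8 and 31.9 CPM in WT libraries 1 to 5. The spread within each group was small beside the gap between them (log2 fold change 0.72, SE 0.09, adjusted p = 1.33e-05, and 0.64 with adjusted p = 0.00116 without library 4). Ifnar2 (chromosome 16, 91372783 to 91405589) was at 29.1, 30.3 and 32.7 CPM in 5xFAD-Dp16 libraries 1, 2 and 4, against 15.4, 18.9, 20.03, 12.7 and 17.7 CPM in WT libraries 1 to 5. It was raised by a like amount with no overlap (log2 fold change 0.85, SE 0.10, adjusted p = 1.33e-05, and 0.76 with adjusted p = 0.00116 without library 4). Per kb of transcript, the level of Ifnar1 was 14.9 ± 1.53 RPKM in 5xFAD-Dp16 and 8.73 ± 0.791 RPKM in WT animals (SD, n = 3 and 5). That of Ifnar2 was 9.84 ± 1.1 RPKM in 5xFAD-Dp16 and 5.33 ± 0.946 RPKM in WT animals. Il10rb, a shared subunit of the receptors for interleukin-10 and type III interferons, was at 14, 13.2 and 16.2 CPM in the 5xFAD-Dp16 libraries, against 7.94 to 9.31 CPM in the WT libraries, again with no overlap (log2 fold change 0.75, SE 0.15, adjusted p = 0.00865, and 0.57 with adjusted p = 0.274 without library 4). Ifngr2, a subunit of the interferon gamma receptor that also lies in the segment, was at 107, 109 and 64.1 CPM in the 5xFAD-Dp16 libraries, against 67.5 to 80.2 CPM in the WT libraries. Libraries 1 and 2 were above the WT range and library 4 below it, and the gene did not pass (log2 fold change 0.35, SE 0.17, adjusted p = 0.356, and 0.59 with adjusted p = 0.264 without library 4). Its partner subunit Ifngr1, outside the segment, had 0.23 (adjusted p = 0.408).

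Of 25 interferon and related ligand genes listed, none had enough counts to be tested. Of 12 transducers 2 rose, with a list median of 0.25, and both passed without library 4. Irf9, 1 of them and the DNA-binding part of the complex at the ISRE, was at 9.58, 15.9 and 9.54 CPM in 5xFAD-Dp16 libraries 1, 2 and 4, against 7.06, 6.85, 7.48, 5.97 and 4.25 CPM in WT libraries 1 to 5. Library 2 was the highest and no library overlapped (log2 fold change 0.84, SE 0.19, adjusted p = 0.0177, and 0.92 with adjusted p = 0.0455 without library 4). Log2 fold changes of the kinases were 0.07 for Jak1 (adjusted p = 0.831), 0.08 for Jak2, 0.12 for Jak3 and 0.25 for Tyk2, and none passed. Stat2 had 0.25 (adjusted p = 0.462). Of 17 inhibitors of the pathway none passed, with a median of 0.08. Usp18, which blocks the type I receptor and is itself induced by interferon, was at 1.97, 4.08 and 2.74 CPM in the 5xFAD-Dp16 libraries, against 0.438 to 1.21 CPM in the WT libraries, without overlap but short of the threshold (log2 fold change 1.68, SE 0.48, adjusted p = 0.0873). Socs1 had 0.92 (adjusted p = 0.55) and Socs3 -0.44 (adjusted p = 0.743).

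Type I interferon-stimulated genes rose outside the segment. Of 48 listed, 47 were tested and 23 passed, all higher, and 46 had a log2 fold change above 0. The list median was 1.33 with quartiles at 0.72 and 2.08, against 0.01 for all genes, and 41 of the 47 had all 5xFAD-Dp16 libraries above all WT libraries. Over all genes tested, 0.816% rose, 52.1% had a log2 fold change above 0 and 4.05% lay wholly above WT. Without library 4 the median was 1.28 and 12 passed, and in the fit of the compared groups alone none did. The mean log2 CPM of the list was 2.42, 2.88 and 2.68 in the 5xFAD-Dp16 libraries, against 1.39, 1.39, 1.36, 0.94 and 0.96 in WT libraries 1 to 5. Library 4 lay between the other two, and no 5xFAD-Dp16 library overlapped with WT. In bulk tissue, fewer cells of a type and less RNA per cell cannot be told apart. Endothelial markers, of a cell type that also responds to interferon, were at 5.03, 4.86 and 5.72 in the 5xFAD-Dp16 libraries, against 4.93 to 5.09 in the WT libraries, so that only library 4 was above WT. Homeostatic microglial markers, given above, were over the WT range in libraries 1 and 2 and under it in library 4. Their part in the result was not tested.

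Promoters of 6 rising interferon-stimulated genes are given, 200 bases up to the last base before the start of the gene. They were chosen among the rising genes whose promoter holds a match to the ISRE core, so a match in each was fixed by the choice. They are from RefSeq (build GRCm38.p6), 5′ to 3′ on the strand of the gene, and capitals mark each match to the ISRE core. The core searched was GAAA, any 2 bases and GAAA, and on the other strand TTTC, any 2 bases and TTTC.
Ifit1: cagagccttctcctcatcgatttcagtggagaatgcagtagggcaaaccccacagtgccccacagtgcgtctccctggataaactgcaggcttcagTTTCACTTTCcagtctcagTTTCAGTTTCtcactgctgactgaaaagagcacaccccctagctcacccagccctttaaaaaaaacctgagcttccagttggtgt
Ifit3: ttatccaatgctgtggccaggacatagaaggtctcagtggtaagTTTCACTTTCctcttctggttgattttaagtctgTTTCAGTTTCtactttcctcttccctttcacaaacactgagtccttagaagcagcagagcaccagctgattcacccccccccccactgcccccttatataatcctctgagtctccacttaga
Ifit3b: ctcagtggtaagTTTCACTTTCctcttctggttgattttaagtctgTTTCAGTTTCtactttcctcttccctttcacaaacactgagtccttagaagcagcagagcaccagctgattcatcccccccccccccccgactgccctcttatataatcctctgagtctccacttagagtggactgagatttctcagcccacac
Isg15: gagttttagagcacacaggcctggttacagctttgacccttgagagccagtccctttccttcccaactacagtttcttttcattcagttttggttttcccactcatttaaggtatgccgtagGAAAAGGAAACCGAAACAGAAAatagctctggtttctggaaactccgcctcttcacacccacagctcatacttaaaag
Rsad2: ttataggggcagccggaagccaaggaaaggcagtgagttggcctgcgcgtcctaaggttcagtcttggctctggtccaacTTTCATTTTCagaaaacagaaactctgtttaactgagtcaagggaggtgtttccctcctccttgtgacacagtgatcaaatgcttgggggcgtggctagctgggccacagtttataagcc
Oas3: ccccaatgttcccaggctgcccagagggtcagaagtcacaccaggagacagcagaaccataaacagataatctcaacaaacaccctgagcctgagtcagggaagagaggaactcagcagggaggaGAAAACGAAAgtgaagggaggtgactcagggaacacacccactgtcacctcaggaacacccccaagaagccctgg
These are at chr19:34640689-34640888 (plus strand), chr19:34583329-34583528 (plus), chr19:34607757-34607956 (plus), chr4:156200819-156201018 (minus), chr12:26456453-26456652 (minus) and chr5:120777660-120777859 (minus). Ifit1 and Ifit3 each hold TTTCACTTTC and TTTCAGTTTC, from -104 and -85 in Ifit1 and from -156 and -122 in Ifit3, counted back from the gene's start. Ifit3b holds the same 2 matches with the same bases between them as Ifit3, from -188 and -154. In Isg15 the 3 matches GAAAAGGAAA, GAAACCGAAA and GAAACAGAAA overlap in a single run between -78 and -57. Rsad2 and Oas3 have 1 match each.

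Matches were counted in windows of 250 bases before to 50 bases after each start, on both strands. Of the 48 listed interferon-stimulated genes, 38 had a RefSeq promoter and 18 of these (47.4%) held a match. Of the 23 that rose, 17 had a promoter and 11 (64.7%) held a match. The same letters were found for 1079 of 27025 genes with a promoter (3.99%). Among genes with a promoter they were found for 1 of 81 tested segment genes (1.23%) and 1 of 27 plaque-associated microglial genes (3.7%). Of the 102 rises outside the segment, 75 had a promoter and 19 of these (25.3%) held a match. These 19 include the 11 interferon-stimulated genes just given. Of the 25 falls, 22 had a promoter and 2 of these (9.09%) held a match. A match describes letters and is not a measured binding site.

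Ifit1 (chromosome 19, 34640871 to 34650009), whose product binds RNA lacking the host cap methylation, was at 9.17, 10.9 and 9.82 CPM in 5xFAD-Dp16 libraries 1, 2 and 4, against 2.3, 2.87, 2.75, 1.59 and 1.75 CPM in WT libraries 1 to 5. It was 4.24-fold higher, and the lowest 5xFAD-Dp16 library was above the highest WT library by more than the range of either group (log2 fold change 2.08, SE 0.34, adjusted p = 0.000672, and 1.97 with adjusted p = 0.0102 without library 4). Ifit3, which stabilises IFIT1, was at 18.3, 26.3 and 26.4 CPM in 5xFAD-Dp16 libraries 1, 2 and 4, against 7.73, 8.09, 7.48, 4.27 and 4.88 CPM in WT libraries 1 to 5. It was 3.54-fold higher (log2 fold change 1.82, SE 0.29, adjusted p = 0.000605, and 1.59 with adjusted p = 0.0206 without library 4). Ifit3b (1.67, adjusted p = 0.0033) and Ifit2 (0.95, adjusted p = 0.00144) passed with all libraries and not without library 4 (adjusted p = 0.0652 and 0.0665). How reads that fit several gene copies were counted is not given, so the split between Ifit3 and Ifit3b, and among the Oas, Gbp and H2 genes, is uncertain.

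Isg15, a ubiquitin-like modifier, was at 3.83, 6.25 and 6.14 CPM in the 5xFAD-Dp16 libraries, against 0.688 to 1.63 CPM in the WT libraries, with library 1 the lowest of the 3 (log2 fold change 2.36, SE 0.45, adjusted p = 0.00437, and 2.19 with adjusted p = 0.0455 without library 4). Rsad2, the antiviral enzyme viperin, was at 5.8, 8.23 and 4.61 CPM in the 5xFAD-Dp16 libraries, against 1.15 to 2.25 CPM in the WT libraries, and here library 4 was the lowest (log2 fold change 1.88, SE 0.32, adjusted p = 0.00106, and 2.03 with adjusted p = 0.00363 without library 4). Oasl2, an oligoadenylate synthetase-like protein, was at 12, 29.4 and 13.3 CPM in the 5xFAD-Dp16 libraries, against 2.06 to 5.34 CPM in the WT libraries. Library 2 stood well above libraries 1 and 4, and all 3 were above the WT range (log2 fold change 2.16, SE 0.35, adjusted p = 0.000662, and 2.23 with adjusted p = 0.00454 without library 4). Irf7, the transcription factor that amplifies type I interferon production, showed the same order with 7, 14.7 and 8.39 CPM in the 5xFAD-Dp16 libraries, against 1.59 to 2.93 CPM in the WT libraries (log2 fold change 1.94, SE 0.33, adjusted p = 0.00106, and 1.87 with adjusted p = 0.0133 without library 4). Lgals3bp (chromosome 11, 118392751 to 118402092), a secreted galectin-binding glycoprotein, was at 51.5, 82.3 and 50.5 CPM in 5xFAD-Dp16 libraries 1, 2 and 4, against 18.2, 21.5, 28.4, 12.9 and 14.6 CPM in WT libraries 1 to 5. It had the smallest p of the list and was 3.03-fold higher (log2 fold change 1.60, SE 0.24, adjusted p = 0.00042, and 1.64 with adjusted p = 0.00363 without library 4).

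Eif2ak2, the RNA-sensing kinase PKR, rose by 0.89 (adjusted p = 0.00464). Zbp1, a sensor of Z-form nucleic acid that can trigger necroptosis, was at 1.56, 1.84 and 1.81 CPM in the 5xFAD-Dp16 libraries, against 0 to 0.506 CPM in the WT libraries (log2 fold change 3.41, SE 0.77, adjusted p = 0.0204, and 3.27 with adjusted p = 0.127 without library 4). Its WT counts were so few that the size of the fitted change depends on the prior count and is no bound. The same holds for Ifi204, an intracellular DNA sensor (3.64, adjusted p = 0.0145), and Phf11b (3.78, adjusted p = 0.0136), both of which passed without library 4. Dhx58, a regulator of cytosolic RNA sensing (2.08), Ifi44 (2.20), Rtp4 (1.59), Trim30a (1.54), Oas1a (2.56), Tor3a (0.73) and the E3 ligase Trim25 (0.66) also rose, but not without library 4. Oas3, with 3 counts in all WT libraries together, was at 0.454, 0.724 and 1.32 CPM in the 5xFAD-Dp16 libraries, against 0 to 0.125 CPM in the WT libraries (adjusted p = 0.0281, and 0.279 without library 4). Parp14, which transfers ADP-ribose and is on chromosome 16 outside the segment (1.28, adjusted p = 0.00882), and Slfn8 (2.01, adjusted p = 0.00818) passed both ways. Ifnar1, Ifnar2, Ifit1, Ifit3, Oasl2, Irf7 and Lgals3bp passed in each of the 8 fits that left out 1 compared library, Irf9 in 6 and Zbp1 in 4. Bst2, which tethers virions (1.33, adjusted p = 0.0528), and Ifi27l2a (2.89, adjusted p = 0.0591) fell just short. Ifit1bl1 was the only tested member below 0 (-0.03). Mx1 (2.30, adjusted p = 0.372) and Mx2 (1.65, adjusted p = 0.345), interferon-induced dynamin-like proteins that lie in the segment, did not pass.

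**Figure D3:**
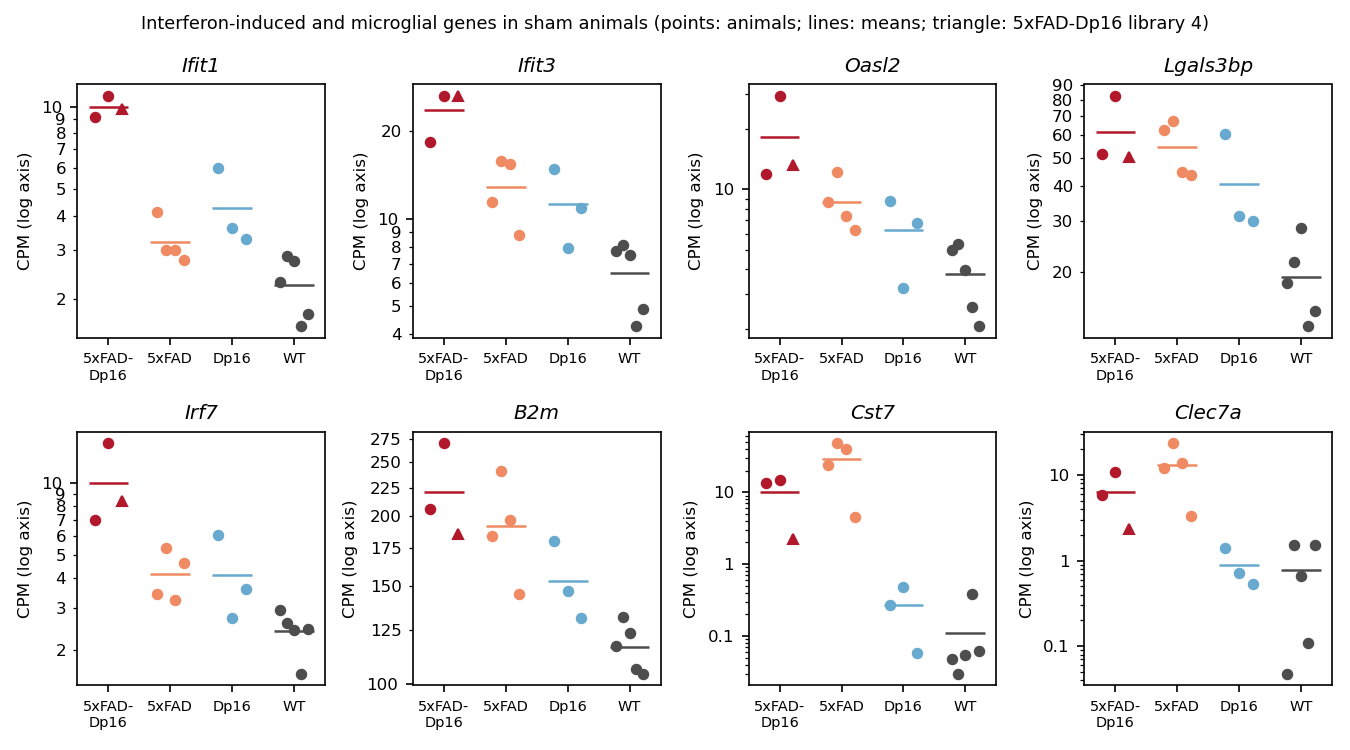
CPM of 8 genes in each sham library on a log axis, in the order 5xFAD-Dp16, 5xFAD, Dp16 and WT, with a line at each group mean, a triangle for 5xFAD-Dp16 library 4 and libraries without a count drawn at 0.03. For Ifit1, Ifit3, Oasl2, Lgals3bp, Irf7 and B2m the triangle lies above all WT libraries, and for Cst7 it lies under the other two 5xFAD-Dp16 libraries (2.25 against 13.6 and 14.7 CPM).

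Genes of antigen presentation by MHC class I rose in part. Of 24 tested, 5 passed, all higher, with a list median of 0.54 (0.38 without library 4). The share of rises over all genes tested was 0.816%. H2-K1 (chromosome 17, 33996017 to 34000347), a classical class I heavy chain, was at 52.4, 68.2 and 66 CPM in 5xFAD-Dp16 libraries 1, 2 and 4, against 34.1, 37, 32.2, 25.6 and 24 CPM in WT libraries 1 to 5. No library overlapped and the level was 1.99-fold higher (log2 fold change 1.00, SE 0.16, adjusted p = 0.000425, and 0.87 with adjusted p = 0.0176 without library 4). H2-D1, the other classical heavy chain, was at 86.9, 121 and 102 CPM in the 5xFAD-Dp16 libraries, against 34.9 to 58 CPM in the WT libraries (log2 fold change 1.15, SE 0.19, adjusted p = 0.000662, and 1.05 with adjusted p = 0.0206 without library 4). B2m, the light chain that all class I molecules share, was at 206, 270 and 186 CPM in the 5xFAD-Dp16 libraries, against 104 to 132 CPM in the WT libraries. All were above the WT range and library 4 was the lowest (log2 fold change 0.89, SE 0.18, adjusted p = 0.00926, and 0.96 with adjusted p = 0.0388 without library 4). The nonclassical H2-Q4 (0.97, adjusted p = 0.0279) and H2-Q7 (2.23, adjusted p = 0.0499) passed only with library 4 in the fit.

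Of 17 interferon-inducible GTPases, which disrupt vacuoles of intracellular pathogens, 4 rose and all 17 were above 0, with a median of 1.07 (0.77 without library 4). Among all genes tested 0.816% rose and 52.1% were above 0. Iigp1 (chromosome 18) was at 4.69, 7.11 and 5.54 CPM in the 5xFAD-Dp16 libraries, against 1.48 to 2.54 CPM in the WT libraries, with no overlap (log2 fold change 1.61, SE 0.22, adjusted p = 0.000101, and 1.59 with adjusted p = 0.00175 without library 4). Gbp3 (1.15, adjusted p = 0.0166), Gbp2 (1.07, adjusted p = 0.0245) and Irgm2 (0.83, adjusted p = 0.041) passed with library 4 and not without it. Of 10 genes of MHC class II presentation 1 rose, with a list median of 1.33 (0.72 without library 4). It was Ctss, a lysosomal protease that also trims the invariant chain, at 190, 249 and 156 CPM in the 5xFAD-Dp16 libraries, against 95.3 to 119 CPM in the WT libraries (log2 fold change 0.92, SE 0.23, adjusted p = 0.0425, and 1.08 with adjusted p = 0.0678 without library 4). Cd74, the invariant chain, was at 13.1, 5.99 and 36.5 CPM in the 5xFAD-Dp16 libraries, against 2.54 to 8.37 CPM in the WT libraries. Library 2 lay within the WT range, and the gene did not pass (log2 fold change 1.80, SE 0.49, adjusted p = 0.0751).

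Genes that mark microglia at amyloid plaques rose in part. Of 32 listed, 31 were tested and 6 passed, all higher, with a median of 0.75 (0.82 without library 4). For 16 of them all 5xFAD-Dp16 libraries lay above all WT libraries. Over all genes tested the median was 0.01, 0.816% rose and 4.05% lay wholly above WT. Cst7 (chromosome 2, 150570415 to 150578944), an inhibitor of lysosomal proteases and among the most specific markers of this state, was at 13.6, 14.7 and 2.25 CPM in 5xFAD-Dp16 libraries 1, 2 and 4, against 0.048, 0, 0.055, 0.383 and 0.0626 CPM in WT libraries 1 to 5. Libraries 1 and 2 were alike and library 4 was far lower, yet above every WT library, where Cst7 was near 0 (log2 fold change 6.47, SE 0.95, adjusted p = 0.000326, and 7.14 with adjusted p = 0.000244 without library 4). With so few WT counts the fitted size depends on the prior count. Clec7a, the beta-glucan receptor dectin-1, was at 5.8, 10.7 and 2.36 CPM in 5xFAD-Dp16 libraries 1, 2 and 4, against 0.048, 1.52, 0.66, 0.109 and 1.5 CPM in WT libraries 1 to 5. Its groups did not overlap although library 4 was again the lowest (log2 fold change 2.92, SE 0.69, adjusted p = 0.0353, and 3.36 with adjusted p = 0.0434 without library 4). The chemokine Ccl6 was at 8.62, 9.81 and 4.33 CPM in the 5xFAD-Dp16 libraries, against 1.4 to 2.74 CPM in the WT libraries (log2 fold change 1.90, SE 0.36, adjusted p = 0.0037, and 2.23 with adjusted p = 0.0018 without library 4). The fatty acid receptor Gpr84 (1.86, adjusted p = 0.0289), the actin-capping protein Capg (1.17, adjusted p = 0.0156) and the protease Ctsl (0.50, adjusted p = 0.0284) passed only with library 4 in the fit. Cst7 and Ccl6 passed in each of the 8 fits that left out 1 compared library, Clec7a in 4 (highest adjusted p = 0.108) and Gpr84 in 2.

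Trem2, the lipid receptor on which this state depends, was at 27.4, 36.1 and 13.2 CPM in the 5xFAD-Dp16 libraries, against 11.7 to 13.8 CPM in the WT libraries. Libraries 1 and 2 were above the WT range and library 4 within it, and the gene did not pass (log2 fold change 1.02, SE 0.33, adjusted p = 0.14). Apoe, the main lipid carrier of the brain, had -0.05 (adjusted p = 0.89). Spp1, osteopontin, was at 8.92, 6.78 and 80.4 CPM in the 5xFAD-Dp16 libraries, against 5.36 to 12.5 CPM in the WT libraries, and its log2 fold change was 2.1 with all libraries (adjusted p = 0.0929), and -0.07 with adjusted p = 1 without library 4. None of 16 homeostatic microglial genes passed, with a median of 0.26 (0.44 without library 4). Of the 16, 14 had a log2 fold change above 0, with quartiles at 0.06 and 0.34. At the low end, Tmem119 had -0.20 and the ADP receptor P2ry12 0.06, both with library 4 in the fit.

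Genes of other innate immune lists passed in small numbers, all of them higher. They made up 12.5% of the complement, 5.88% of the Toll-like receptor pathway and 16.7% of the lysosomal genes tested. Of all genes tested, 0.816% rose. Of 16 tested complement genes 2 passed, the C3a receptor C3ar1 (1.35, adjusted p = 0.0245, and 1.61 with adjusted p = 0.0188 without library 4) and Itgb2, a subunit of the iC3b receptor (1.12, adjusted p = 0.0471, and 1.33 with adjusted p = 0.0488 without library 4), with a list median of 0.67. Of 17 Toll-like receptor pathway genes 1 passed, Unc93b1, which carries the nucleic acid-sensing receptors to endosomes (0.70, adjusted p = 0.0204), with a median of 0.55. Of 12 lysosomal genes 2 passed, Ctss and Ctsl, which is on the plaque-associated list too, with a median of 0.36, and neither passed without library 4. When 1 compared library was left out, C3ar1 passed in 4 of 8 fits, Itgb2 in 2 and Ctss in none. Cybb, the catalytic subunit of the phagocyte oxidase (2.61, adjusted p = 0.00479), the phospholipase Plcg2 (0.82, adjusted p = 0.0431, and 0.127 without library 4), the checkpoint ligand Cd274 (1.2, adjusted p = 0.0187) and Lgals9, galectin-9 (0.93, adjusted p = 0.00826), also rose. So did the nicotinic acid receptor Hcar2, at 0.806, 0.987 and 0.548 CPM in the 5xFAD-Dp16 libraries, against 0 to 0.0626 CPM in the WT libraries (adjusted p = 0.00733). The summed CPM of the plaque-associated list was 8614 to 9600 in the 5xFAD-Dp16 libraries, against 7327 to 9555 in the WT libraries, and that of the homeostatic list 499.7 to 844 in the 5xFAD-Dp16 libraries, against 541 to 637 in the WT libraries. Such sums follow the most abundant members. The mean log2 CPM of the plaque-associated list was 4.56, 4.56 and 4.15 in 5xFAD-Dp16, against 3.15 to 3.47 in WT libraries, without overlap. The part of microglial number in these results was not tested.

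**Figure D4:**
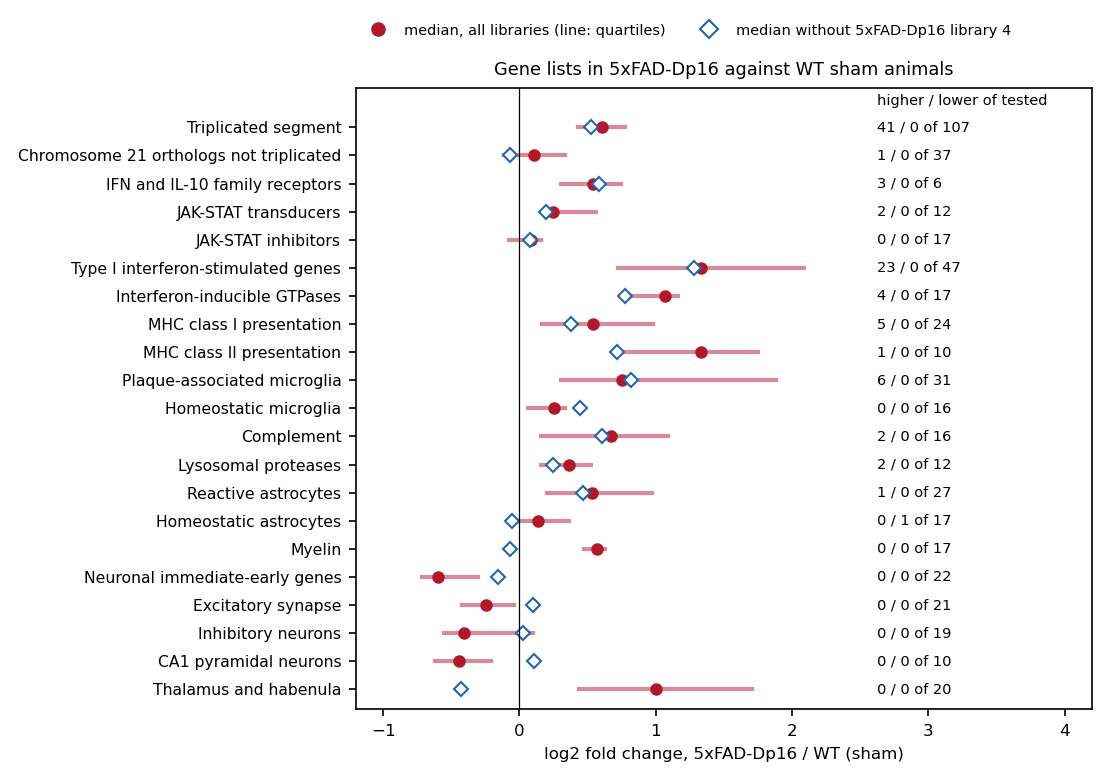
Median log2 fold change (5xFAD-Dp16 over WT) of the tested members of 21 gene lists with their quartiles, with a diamond for the median without 5xFAD-Dp16 library 4 and the numbers that rose and fell beside each list. The interferon-stimulated list keeps its median (1.33, and 1.28 without library 4), whereas the thalamus list moves to the other side of 0 (1.00, and -0.42 without library 4).

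Of 27 tested reactive astrocyte genes only Gbp2 passed, and not without library 4. The list median was 0.53 with all libraries and 0.47 without library 4, with 22 genes above 0. The mean log2 CPM of the list was 2.74, 2.72 and 2.77 in the 5xFAD-Dp16 libraries, against 1.92 to 2.55 in the WT libraries, with no overlap. Gfap, the intermediate filament of astrocytes, was at 839, 869 and 433 CPM in the 5xFAD-Dp16 libraries, against 391 to 586 CPM in the WT libraries. Libraries 1 and 2 were above the WT range and library 4 within it (log2 fold change 0.61, SE 0.40, adjusted p = 0.509). The medians of several other lists moved with library 4. Myelin genes had a median of 0.57 with all libraries and -0.07 without library 4, and none of 17 passed. Neuronal immediate-early genes had a median of -0.60 with all libraries and -0.16 without library 4, and none of 22 passed. CA1 markers stood at -0.44 with all libraries and 0.11 without library 4. The 20 thalamus and habenula genes had a median of 1.00 with all libraries and -0.42 without library 4, and none passed.

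A part of the rises was carried by library 4. In 15 of the 143 its level was more than 3 times that of the higher of libraries 1 and 2, and none of the 15 passed without it. The glycine receptor subunit Glra1, typical of brainstem and spinal cord, was at 0.101, 0.0658 and 23.3 CPM in the 5xFAD-Dp16 libraries, against 0 to 0.096 CPM in the WT libraries (log2 fold change 8.09, SE 1.62, adjusted p = 0.00865, and -0.18 with adjusted p = 1 without library 4). The transcription factor Gata3, which marks midbrain and brainstem neurons, was at 0.202, 0 and 27.2 CPM in the 5xFAD-Dp16 libraries, against 0 to 0.274 CPM in the WT libraries (7.03, adjusted p = 0.0478, and -1.55 with adjusted p = 0.98 without library 4). Th, the rate-limiting enzyme of dopamine synthesis, was at 0.706, 0.395 and 75 CPM in the 5xFAD-Dp16 libraries, against 0.375 to 1.07 CPM in the WT libraries (5.47, adjusted p = 0.0127, and -0.65 with adjusted p = 0.982 without library 4). Gata3 also fell short of the threshold when any WT library was left out. With so few WT counts the fitted sizes of Glra1 and Gata3 depend on the prior count. In these 3 genes libraries 1 and 2 were near the WT values and the log2 fold change lay below 0 without library 4. Pax5, a transcription factor of B cells and the midbrain, was at 0.504, 0.592 and 17.4 CPM in the 5xFAD-Dp16 libraries, against 0 to 0.5 CPM in the WT libraries (4.71, adjusted p = 0.0129, and 2.07 with adjusted p = 0.904 without library 4). The guidance cue Ntn1 was at 15.6, 13.8 and 54.3 CPM in the 5xFAD-Dp16 libraries, against 10.7 to 14.6 CPM in the WT libraries (1.17, adjusted p = 0.038, and 0.11 with adjusted p = 0.992 without library 4). Over all 143 rises library 4 was the highest of its group in 80 and the lowest in 37. Of the 102 rises outside the segment 34 passed without it, and of the 41 in the segment 26.

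**Figure D5:**
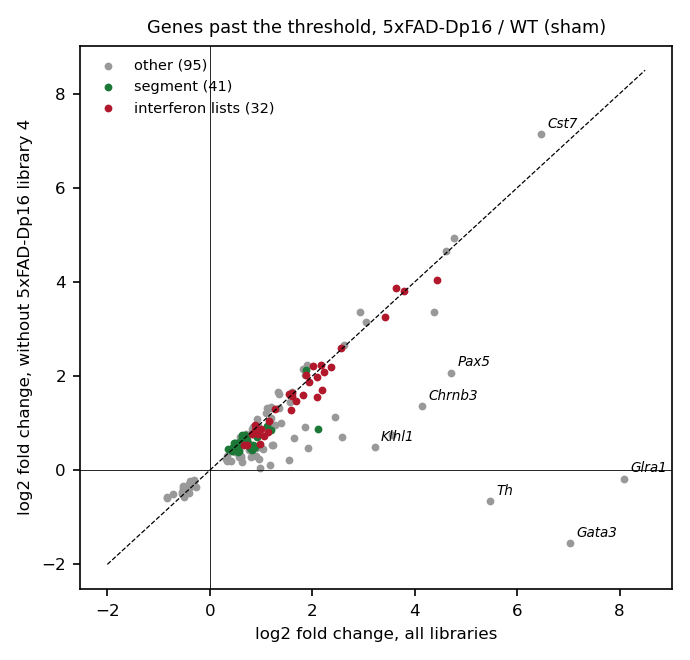
Log2 fold change of 5xFAD-Dp16 over WT for the 168 genes past the threshold, with all libraries (horizontal axis) and without 5xFAD-Dp16 library 4 (vertical axis), for 41 segment genes, 32 genes of the interferon lists and 95 others. Segment genes other than Sh3bgr and interferon genes lie near the line of equal values, and genes such as Glra1 (8.09 with all libraries, -0.18 without library 4) lie far below it.

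The 25 falls had log2 fold changes between -0.84 and -0.28. Library 4 was the lowest of its group in 20 of them. Mfge8, which bridges phagocytes to phosphatidylserine on their targets, was at 147, 173 and 84.7 CPM in 5xFAD-Dp16 libraries 1, 2 and 4, against 252, 249, 247, 223 and 201 CPM in WT libraries 1 to 5. All 3 were below the WT range (log2 fold change -0.83, SE 0.17, adjusted p = 0.00899, and -0.59 with adjusted p = 0.204 without library 4). P4htm, an endoplasmic reticulum prolyl hydroxylase, was at 54.9, 53.5 and 49.5 CPM in the 5xFAD-Dp16 libraries, against 68.6 to 77 CPM in the WT libraries, with the libraries close together (log2 fold change -0.46, SE 0.09, adjusted p = 0.00464, and -0.45 with adjusted p = 0.0522 without library 4). The transcription factor Deaf1 was at 35.3, 30.6 and 30.1 CPM in the 5xFAD-Dp16 libraries, against 42.4 to 51.7 CPM in the WT libraries (log2 fold change -0.55, SE 0.11, adjusted p = 0.00565, and -0.51 with adjusted p = 0.0858 without library 4). Mxd4, which competes with MYC for its partner MAX, was at 56.4, 68.9 and 51.3 CPM in the 5xFAD-Dp16 libraries, against 75.9 to 91.8 CPM in the WT libraries (log2 fold change -0.55, SE 0.10, adjusted p = 0.00457, and -0.46 with adjusted p = 0.113 without library 4). The adrenergic receptor Adra2c was at 25.3, 20.2 and 10.7 CPM in the 5xFAD-Dp16 libraries, against 27.6 to 36.3 CPM in the WT libraries (log2 fold change -0.84, SE 0.17, adjusted p = 0.00911, and -0.56 with adjusted p = 0.238 without library 4). On chromosome 16 outside the segment, the peptide transporter Slc15a2 (-0.71, adjusted p = 0.041) and Thap7 (-0.45, adjusted p = 0.0425) fell. Snx17, a sorting nexin that recycles cargo from endosomes, was the only fall that passed both with library 4 (-0.28, adjusted p = 0.047) and without it (-0.36, adjusted p = 0.0448).

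The same genes in animals with the transgenes or the segment alone are given side by side, and all such comparisons share the WT libraries. Against WT, 78 genes passed in 5xFAD (0.445%) and 54 in Dp16 animals (0.308%), where 43 were higher (0.245%) and 11 lower (0.0628%). Log2 fold changes of Cst7 against WT were 6.47 in 5xFAD-Dp16, 7.96 in 5xFAD and 1.25 in Dp16 animals. Its level was 10.2 ± 6.88 CPM in 5xFAD-Dp16, 29.2 ± 19.3 CPM in 5xFAD, 0.267 ± 0.207 CPM in Dp16 and 0.11 ± 0.155 CPM in WT animals (SD, n = 3, 4, 3 and 5). The 5xFAD-Dp16 mean includes library 4, at 2.25 CPM against 13.6 and 14.7 CPM in libraries 1 and 2. The 5xFAD libraries ranged from 4.47 to 48.1 CPM. Log2 fold changes of Clec7a were 2.92 in 5xFAD-Dp16, 4.19 in 5xFAD and 0.14 in Dp16 animals, and those of Ccl6 1.90 in 5xFAD-Dp16, 2.93 in 5xFAD and -0.27 in Dp16 animals. For Ifnar2 they were 0.85 in 5xFAD-Dp16, 0.33 in 5xFAD and 0.88 in Dp16 animals, and for App 0.69 in 5xFAD-Dp16, -0.02 in 5xFAD and 0.46 in Dp16 animals. The segment gene Samsn1 had 1.88 in 5xFAD-Dp16, 1.61 in 5xFAD (adjusted p = 0.0099) and 1.19 in Dp16 animals (adjusted p = 0.251), so that it passed in 5xFAD and not in Dp16 animals. Of the 31 plaque-associated genes tested, 6 passed in 5xFAD-Dp16 (list median 0.75), 15 in 5xFAD (1.16) and none in Dp16 animals (0.08). Without library 4, 3 passed in 5xFAD-Dp16 against WT, with a list median of 0.82. Set directly against 5xFAD with all libraries, none of the 31 passed in 5xFAD-Dp16, with a list median of -0.30.

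Both single genotypes had mean levels of the interferon-stimulated genes named between those of 5xFAD-Dp16 and WT. Ifit1 averaged 9.97 ± 0.888 CPM in 5xFAD-Dp16, 3.23 ± 0.615 CPM in 5xFAD, 4.29 ± 1.47 CPM in Dp16 and 2.25 ± 0.575 CPM in WT animals. Its log2 fold changes against WT were 2.08 in 5xFAD-Dp16, 0.55 in 5xFAD and 0.85 in Dp16 animals. Those of Ifit3 were 1.82 in 5xFAD-Dp16, 1.05 in 5xFAD and 0.73 in Dp16 animals. Lgals3bp averaged 61.4 ± 18.1 CPM in 5xFAD-Dp16, 54.5 ± 12.3 CPM in 5xFAD, 40.6 ± 17.3 CPM in Dp16 and 19.1 ± 6.19 CPM in WT animals, with log2 fold changes of 1.60 in 5xFAD-Dp16, 1.54 in 5xFAD and 1.00 in Dp16 animals. H2-K1 had 1.00 in 5xFAD-Dp16, 0.64 in 5xFAD and 0.45 in Dp16 animals. The list median was 1.33 in 5xFAD-Dp16, with 23 of 47 past the threshold, 0.73 in 5xFAD, with 1 past it, and 0.54 in Dp16 animals, with none past it. Set directly against 5xFAD, none of the 47 passed in 5xFAD-Dp16, with a list median of 0.64. Against Dp16 none passed either, with a list median of 0.68. Mfge8 had -0.83 in 5xFAD-Dp16, -0.02 in 5xFAD and -0.58 in Dp16 animals, and P4htm -0.46 in 5xFAD-Dp16, -0.08 in 5xFAD and -0.55 in Dp16 animals.

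Whether the change in 5xFAD-Dp16 differed from the sum of those in 5xFAD and Dp16 was tested per gene on the log2 scale. No gene passed (0.0%, smallest adjusted p 0.888), with 956 genes at an unadjusted p under 0.05, and DESeq2 called 2. The difference from the sum was 0.68, SE 0.51 for Ifit1, 0.04, SE 0.43 for Ifit3 and -0.94, SE 0.35 for Lgals3bp. With such errors a change of the size of the single-genotype changes could not be told from none for Ifit1.

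Set directly against 5xFAD sham animals, 5xFAD-Dp16 differed in 47 genes (0.268%), 44 higher (0.251%) and 3 lower (0.0171%). Of the rises 33 were segment genes, again led by Tmem50b, and without library 4 there were 19 calls, 16 of them in the segment. The alarmin Il33 was at 86.9, 76.5 and 168 CPM in the 5xFAD-Dp16 libraries, against 49.5 to 60.9 CPM in the 5xFAD libraries (log2 fold change 0.97, adjusted p = 0.00998, and adjusted p = 0.80 without library 4, which held the highest value). The 3 falls were Mfge8 (-0.81), Deaf1 (-0.57) and Sh3bp4 (-0.54), and none of them passed without library 4 (adjusted p = 0.789 for Mfge8, 0.239 for Deaf1 and 0.633 for Sh3bp4). Set against Dp16 sham animals, no gene passed in edgeR's test (0.0%, smallest adjusted p 0.0757), with 1275 genes at an unadjusted p under 0.05 and 11 called by DESeq2. Without library 4, 3 genes were higher than in Dp16, namely Thy1 (1.70), Ccl6 (2.46) and Cst7 (5.79).

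Animals of the same 2 genotypes given tofacitinib share no library with the sham comparison, though both come from the same fit. Here too libraries stood apart in make-up. Thalamus and habenula markers were at a mean log2 CPM of 4.63 in 5xFAD-Dp16 tofacitinib library 1, with 2.92 to 3.19 in the others of its group. In WT tofacitinib library 3 dentate gyrus markers were at 3.02, with 4.78 to 5.06 in the others of its group, and striatum markers at 6.16, with 3.42 to 3.69 in the others. With all libraries 94 genes passed (0.537%), 92 higher (0.525%) and 2 lower (0.0114%), against 94 calls without that 5xFAD-Dp16 library and 75 without that WT library. Of the segment's rises under sham 34 of 41 (82.9%) passed there too, which is 89.5% of the 38 segment rises under tofacitinib. Of the rises outside the segment 24 of 102 (23.5%) did, which is 44.4% of the 54 under tofacitinib, and no fall was shared. The direction was kept by 41 of 41 segment rises, 93 of 102 other rises and 22 of 25 falls. The same share over all genes tested is not given here, so these counts have no background to be read against. Under tofacitinib 5 interferon-stimulated genes passed (list median 0.81), and 11 plaque-associated microglial genes (list median 0.83). Ifit1 had 1.23 under tofacitinib and 2.08 under sham. Lgals3bp had 1.60 under tofacitinib and 1.60 under sham. Cst7 had 6.06 under tofacitinib and 6.47 under sham, and Ifnar1 had 0.61 under tofacitinib and 0.72 under sham. The difference between the genotype changes under sham and tofacitinib passed for no gene in edgeR's test (0.0%, smallest adjusted p 0.98) or DESeq2, with 674 genes at an unadjusted p under 0.05. That difference was 0.85, SE 0.48 for Ifit1 and 1.08, SE 0.46 for Irf7, and no difference of response to the drug was shown.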

How the data were processed

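Poly(A) RNA of the hippocampus was sequenced by the authors as strand-specific libraries, in pairs of 150 bp, per the labels' protocols. Per the submitters' processing notes the build was GRCm38, and the tools were HTSeq 0.6.1, SAMtools 1.5, HISAT2 2.1.0, FastQC 0.11.5 and bcl2fastq. The authors deposited raw read counts per gene (GENCODE release 24 by name, 55385 genes) and RPKM values, which scale counts to gene length and library size. Counting settings for strand and for reads with several matches are not given in the sources used here. Positions came from GENCODE release 21 (GRCm38), where 55144 identifiers (99.6%) were found. Promoters are from RefSeq (GRCm38.p6).

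Deposited counts of all 34 libraries (14.9 to 21.1 M, median 17.8 M) were tested, after TMM scaling, with edgeR 4.0.16 (R 4.3.3, limma 3.58.1; quasi-likelihood F-test, robust) after filterByExpr by group. The fit had 8 group means and a term for sex (25 residual degrees of freedom, median prior 5.84). Tests were two-sided contrasts with Benjamini-Hochberg adjustment over all tested genes, and every adjusted p is from this test unless another tool is named. The F statistic of each fold change gave its standard error. CPM use TMM-scaled totals of the tested genes, and RPKM are the authors' deposited values. List levels average log2 CPM (prior count 2).

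Named genes follow a rule: check genes, the 12 largest called rises and falls at 1 CPM or more, up to 5 members of each list with 2 or more past it, all signalling genes tested, 12 segment genes and the leading genes of the other contrasts. Some genes the rule selects are described by counts only, a signalling gene is not reported here, and further genes were named after their values were seen. The comparison, the lists and the rule were chosen with earlier results of these data known. Alternatives were DESeq2 size factors, no filter, a replicate block, no sex term, the compared groups or females alone, DESeq2 1.42.0, a thalamus covariate, leaving out each library in turn or 3 libraries low in hippocampal markers (sham 5xFAD-Dp16 library 4, and tofacitinib 5xFAD library 2 and WT library 3), and matches on the reverse strand only. Library weights in limma voom, and the compared groups without library 4, were added after seeing the data. The fit was tested on simulated data.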

Additional observations from a re-analysis of the deposited data

Results flagged for a closer look

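Of 220 groups of 4 to 10 libraries checked, 9 held a library far from the others of its group, and chance alone gives about 1 in 20. Among genes, Cst7 stood at 0.383 CPM in WT sham library 4, with 0 to 0.0626 CPM in the other WT sham libraries, and at 0.823 CPM in WT tofacitinib library 3, with 0.0501 to 0.247 CPM in the others. Ifit1 was at 4.13 CPM in 5xFAD sham library 1, with 2.77 to 3.00 CPM in the others. Psmb3 was at 53.1 CPM in WT sham library 3, with 46.9 to 48.4 CPM in the others. Gm49708 was at 0.720 CPM in WT sham library 1, with 0.125 to 0.225 CPM in the others. The agouti gene (symbol a) was at 0.219 CPM in WT sham library 4 and at 0 in the others. Among marker levels in log2 CPM, the myelin list was at 7.12 in WT sham library 5, with 7.31 to 7.36 in the others, and the dentate gyrus list at 5.26 in the same library, with 4.89 to 4.98 in the others. The meninges list was at 4.41 in WT sham library 2, with 3.35 to 3.64 in the others.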

How the results depend on the processing

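The count of calls in 5xFAD-Dp16 against WT (168) was within 1.5 times under DESeq2 size factors (173), without the sex term (192), with a thalamus covariate (143, 16 of them lower) and with library weights (202, of which 112 are among the 168). It was 1270 without a filter on low counts (875 higher, 395 lower), 348 with DESeq2 (271 higher, 77 lower), 85 without the 3 low libraries (78 higher, 7 lower), 1 in females alone (1 higher, 0 lower) and 0 in the compared groups alone (0 higher, 0 lower). In the compared groups without library 4 it was 11 (11 higher, 0 lower). Leaving out 1 library gave 65 to 474 calls, 61 to 352 higher and 4 to 122 lower. These were 415 without 5xFAD-Dp16 library 1, 474 without library 2 and 65 without library 4, and 91 to 134 without a WT library. The cause was not tested. Of the 79 called genes named, 40 stayed past the threshold without library 4, 36 did not and 3 reversed. When 1 library was left out, Gata3 ranged from -1.55 to 8.16, Glra1 from -0.18 to 9.02 and Th from -0.65 to 6.18. Gata3 was at -1.55 without library 4, -1.61 without the 3 low libraries and -0.38 with library weights. Glra1 was at -0.18 without library 4 and -0.10 without the 3 low libraries. Th was at -0.65 without library 4, -0.63 in females, -0.52 without the 3 low libraries, -0.64 in the compared groups without library 4 and -0.16 with library weights.

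Against 5xFAD (47), calls were 1054 with no filter, 28 with the replicate block, 115 with DESeq2, 27 without the 3 low libraries, 0 in the compared groups alone with or without library 4, 0 in females and 19 to 183 when 1 library was left out. Against Dp16 (0), they were 511 with no filter, 11 with DESeq2, 105 in the compared groups without library 4, 3 with the thalamus covariate and without the 3 low libraries, 1 with no sex term, alone, in females and with library weights, and 0 to 3 when 1 library was left out. The departure from additivity gave 433 with no filter and 2 with DESeq2. Under tofacitinib (94), calls were 280 with no filter, 52 in the compared groups alone, 5 in females, 156 with DESeq2, 144 with the thalamus covariate and 63 to 94 when 1 library was left out. The difference between sham and tofacitinib gave 232 with no filter.

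Segment genes called (41) were 0 alone and in females, 1 alone without library 4, and 27 to 42 when 1 library was left out. Interferon-stimulated genes called (23) were 0 alone, in females and alone without library 4, 13 without the 3 low libraries, and 12 to 29 when 1 library was left out. MHC class I genes called (5) were 3 with the replicate block and without the 3 low libraries, 0 alone and in females, 1 alone without library 4, and 3 to 5 when 1 library was left out. Plaque-associated genes called (6) were 20 with no filter, 12 with DESeq2, 0 alone, 1 in females, and 2 to 7 when 1 library was left out. Matches on the reverse strand only were in 21.1% of interferon-stimulated promoters.

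The labels do not say that equal replicate numbers share a litter or day, and same-numbered libraries did not deviate together (r = -0.015, -0.122 and -0.041). With the replicate number as a block there were 109 calls, 9 of them lower.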

Other observations

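Some rises belong to neither the interferon nor the plaque-associated lists. The agouti gene (symbol a, chromosome 2, 154791402 to 155051012), whose product sets coat colour and is on no segment of the duplication, was at 1.61, 1.71 and 1.04 CPM in the 5xFAD-Dp16 sham libraries and between 1.23 and 2.05 CPM in the Dp16 sham libraries. It was at 0 in all 4 5xFAD sham libraries and in 4 of the 5 WT sham libraries, with 0.219 CPM in the other. With tofacitinib it was between 0.861 and 2.17 CPM in 5xFAD-Dp16 libraries, against 0 in the WT libraries. The genotype difference passed in edgeR's test under sham (adjusted p = 0.0155, and 0.0399 without library 4). The gene was singled out after its values were seen.

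The phospholipase gene Liph (chromosome 16, 21953817 to 21995663), far from the duplicated segment, was at 1.97, 2.04 and 1.21 CPM in the 5xFAD-Dp16 libraries, against 0.288 to 0.876 CPM in the WT libraries (log2 fold change 1.81, adjusted p = 0.0377, and 2.14 with adjusted p = 0.0412 without library 4). The Dp16 sham libraries stood at 1.94 to 2.21 CPM and the 5xFAD sham libraries at 0.566 to 1.09 CPM. Hexa, a lysosomal hexosaminidase subunit, was at 81.9, 87.6 and 66.7 CPM in the 5xFAD-Dp16 libraries, against 48.4 to 57.5 CPM in the WT libraries (log2 fold change 0.60, adjusted p = 0.0245, and 0.71 with adjusted p = 0.0256 without library 4). Cd84, an immune cell adhesion receptor, was at 7.71, 11.4 and 7.08 CPM in the 5xFAD-Dp16 libraries, against 3.09 to 5.01 CPM in the WT libraries (log2 fold change 1.19, adjusted p = 0.0284, and 1.35 with adjusted p = 0.0455 without library 4).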
